A study of Mus musculus with 8 samples.

Results

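CD40 is the receptor through which helper T cells license B cells, and its signal is passed on by a small set of adaptors. Examined here were 10 genes chosen by name: the receptor gene Cd40, the 6 adaptor genes Traf1 to Traf6, Birc2 and Birc3, which encode the ubiquitin ligases cIAP1 and cIAP2, and Map3k14, which encodes the kinase NIK. They are 10 of the 24259 gene symbols in the count table and of the 12744 that had enough counts to be tested, and all 10 passed that filter. The RNA came from B cells that bound the hapten NP, carried little IgD and were B220+, labelled as precursors of germinal center (GC) B cells. They were from lymph nodes of C57BL/6 mice on day 3 of the response to NP-OVA, the hapten linked to ovalbumin. Both groups were given NP-OVA with bacterial lipopolysaccharide in alum. Recipients in both groups were Sap-/- and had received OT-II T cells, which recognise ovalbumin, so that help for GCs came from the transferred cells. Sap encodes an adaptor that T cells need for lasting contact with B cells. T cells given to HET recipients had CD4-Cre together with 1 floxed Bcl6 allele (CD4-CrexBcl6fl/+), whereas those given to WT recipients had CD4-Cre with no floxed allele. CD4-Cre is active from early T cell development onwards, and the deletion affects the helper cells while the RNA is from B cells, so no targeted gene could be used to check the group names. Each group had 4 libraries of about 200 cells, sorted as repeats from 1 pool of recipients. The p-values therefore measure the spread between repeats of a pool, and the effect of the group cannot be told apart from that of the pool.

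CD40 has no enzyme activity of its own. When its ligand clusters it, TRAF proteins gather on its cytoplasmic tail, TRAF6 near the membrane and TRAF1, TRAF2, TRAF3 and TRAF5 at a more distal site. In resting B cells TRAF3 brings NIK to TRAF2 and the cIAPs, which mark it for destruction, and CD40 engagement turns the cIAPs against TRAF3, so that NIK accumulates and the non-canonical NF-kB pathway opens. Much of this control acts on proteins, which RNA levels do not show. The comparison asks whether RNA for this machinery differed between B cells helped by T cells with 1 or both Bcl6 alleles.

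For 2 adaptor genes the 250 bases before the RefSeq start (GRCm38.p6) are shown, read 5′ to 3′. Traf1 is shown because its RNA differed most between the groups, and Traf3 because its window was the single one of 10 windows, from 9 of the 10 genes, that held a match to the NF-kB consensus on either strand. The windows lie at chr2:34961773-34962022 on the minus strand for Traf1 and at chr12:111166120-111166369 on the plus strand for Traf3. Capitals mark the match.
Traf1: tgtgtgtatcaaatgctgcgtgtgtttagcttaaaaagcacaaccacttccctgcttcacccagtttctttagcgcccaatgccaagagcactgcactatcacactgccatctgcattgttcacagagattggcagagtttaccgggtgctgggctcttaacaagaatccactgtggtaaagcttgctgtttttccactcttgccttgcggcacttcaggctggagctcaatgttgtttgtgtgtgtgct
Traf3: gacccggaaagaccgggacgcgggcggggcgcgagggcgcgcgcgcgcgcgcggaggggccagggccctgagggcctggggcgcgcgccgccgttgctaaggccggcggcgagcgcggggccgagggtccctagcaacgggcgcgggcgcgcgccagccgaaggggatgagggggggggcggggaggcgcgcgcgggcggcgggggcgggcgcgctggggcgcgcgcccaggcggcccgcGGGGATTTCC
The match in Traf3 takes up the last 10 bases of its window. Among the 32851 windows of this length, 7.25% held the NF-kB consensus and 6.75% held TGANTCA, the core of the AP-1 motif, which none of the 10 windows contained. GC content was 48.0% for Traf1 and 85.2% for Traf3, against a median of 52.4% over all windows. These are matches of letters and no measure of binding.

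The libraries held between 6652386 and 12559189 counts, so that 3 counts were worth 0.241 to 0.455 counts per 1000000 (CPM), and 16104 to 17736 genes were detected in each. Chi-square values between repeats of a group were 12.86 to 32.25 per degree of freedom, so no library was a copy of another. All 9 B cell markers, Cd79a and Pax5 among them, were present in every library. Their summed level was lower in HET, 9561 to 10590 CPM, than in WT, 11250 to 12110 CPM, with no overlap. All 9 were lower in HET, 6 of them at an unadjusted edgeR p under 0.05, where 3.88% of all tested genes were. In 5 of the 9 every HET library was below every WT library, beside 2.62% of all tested genes. The part of this difference in lower values of other genes was not tested. Of 16 T cell markers 14 were tested, and 13 were higher and 1 lower in HET, where 49.9% and 50.1% of all tested genes were. Summed over all 16, their level was 511 to 856 CPM in HET and 441 to 666 CPM in WT. The lower gene, Cd2, was the largest term of the sum in every library, with means of 197 CPM in HET and 217 CPM in WT. Cd2 RNA is not limited to T cells, so the sum does not measure T cell RNA alone. The gene for CD4 was at 0 in 5 libraries and Cd40lg, which encodes the CD40 ligand, in 6, while Cd8b1 was present in all. Myeloid markers summed to 47.9 to 126 CPM in HET and 31.4 to 468 CPM in WT. The highest sum, in WT 2, held 399 CPM from Lyz2 alone, which was at 0 in WT 1 and WT 4. In 5 libraries each, 4 of the myeloid genes including Cd14 and C1qa were at 0. Of the 8 tested myeloid markers 3 were higher and 5 lower in HET, with a median of the log2 fold changes of -0.80. Among them Flt3 had higher values in every HET library (15.6 to 26.1 CPM) than in any WT library (5.80 to 12.3 CPM), and Csf1r had a lower mean in HET (7.48 ± 1.90 CPM) than in WT (14.3 ± 4.62 CPM). In bulk samples, fewer cells of a type and less RNA per cell cannot be told apart.

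Levels of different genes are compared here in transcripts per 1000000 (TPM), computed from the counts and the length of the longest protein-coding transcript. Birc3 was the highest of the 10 in all 8 libraries, with 85.1 TPM ± 9.12 (SD, n = 8). Traf5 followed with 59.7 TPM ± 10.4, Cd40 with 49.2 TPM ± 6.15, Traf1 with 36.1 TPM ± 17.3, Traf4 with 33.0 TPM ± 5.15 and Traf2 with 30.5 TPM ± 4.12. Birc2 had 21.4 TPM ± 4.91. A lower tier held Traf3 with 8.08 TPM ± 2.18, Map3k14 with 7.22 TPM ± 2.36 and Traf6 with 6.66 TPM ± 2.03. Birc3 therefore stood near the 88.5th percentile of all tested genes, and Traf6 near the 35.8th.

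The order was firm at some steps and loose at others. Cd40 ranked 3 in all 8 libraries, and Traf2 was above Birc2 in all 8. Traf1 was above Traf4 in 3 of 8 libraries, and its rank moved from 2 in HET 3 to 7 in WT 3 and WT 4. Map3k14 was above Traf6 in 3 of 8 libraries, so these neighbours did not differ beyond their spread. With the length of all exons joined, Traf1 moved to place 7 at 19.9 TPM and Traf5 to place 3 at 36.2 TPM.

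The TPM values that were deposited give another order, because the length behind them includes introns. For 97.8% of 12503 genes that length was within 1% of the mean genomic span of the gene's annotated transcripts. Traf3 was divided by 77747 bp, 11.0 times the 7060 bp of its longest coding transcript, and came last with a mean of 1.43 deposited TPM. Traf5 was divided by 21582 bp in place of 1964 bp and moved to place 6 with 10.6 deposited TPM. Cd40 stayed at place 3 with 24.5 deposited TPM. The length is 1 number per gene, so comparisons of a gene between libraries do not depend on it.

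**Figure D1:**
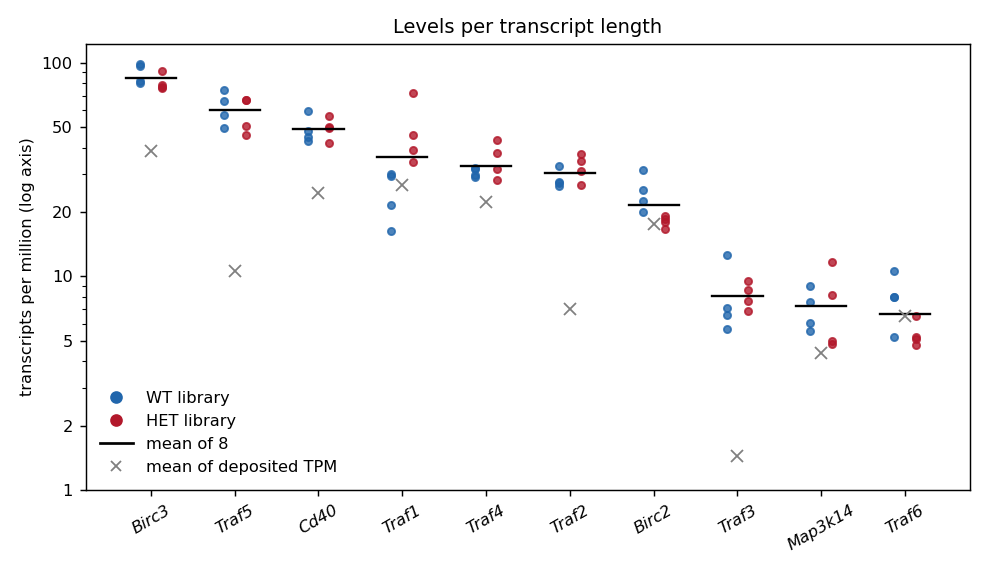
Level of each of the 10 genes in every library in TPM per transcript length, on a log axis, with the mean of 8 libraries as a bar and the mean of the deposited, intron-inclusive TPM as a cross. Birc3 is highest at 85.1 TPM and Traf6 lowest at 6.66 TPM, and the cross for Traf3 lies at 1.43 TPM.

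Cd40 RNA did not separate the groups. HET libraries 1 to 4 held 85.4, 96.0, 96.8 and 109.5 CPM, and WT libraries 1 to 4 held 83.7, 87.1, 108 and 92.4 CPM. The 2 ranges nearly coincide. The log2 fold change, HET over WT, was 0.06 (95% interval -0.22 to 0.34), and the adjusted p from edgeR (quasi-likelihood) was 0.958. Repeats of Cd40 were also close to each other, with a coefficient of variation of 10.2% in HET and 11.7% in WT, where counting error alone gives 3.61% and 3.39%. The gene spans 165055627 to 165072948 on chromosome 2 (GRCm38, plus strand).

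Traf1 was the gene of this group with the largest difference. TRAF1 lacks the RING domain of the other TRAFs, works in complexes with TRAF2 and is encoded by a gene known to be induced by NF-kB. HET libraries 1 to 4 gave 91.2, 102, 161 and 76.3 CPM. WT libraries 1 to 4 gave 67.7, 65.4, 45.6 and 36.01 CPM. Every HET library was above every WT library, with the closest pair 76.3 CPM in HET 4 and 67.7 CPM in WT 1. Means were 108 ± 37.0 CPM in HET and 53.7 ± 15.4 CPM in WT (SD, n = 4 each). The log2 fold change was 1.001 (SE 0.24, 95% interval 0.48 to 1.52), with an unadjusted p of 0.00111 and an adjusted p of 0.277 over all genes in edgeR. The difference therefore missed the threshold of 0.05 in edgeR, whereas DESeq2 gave a log2 fold change of 1.01 and an adjusted p of 0.0159.

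The call for Traf1 depended on the tool, and its size varied with the library left out. Leaving out each library in turn gave log2 fold changes from 0.75, without HET 3, to 1.14, without HET 4, with edgeR adjusted p from 0.217 to 0.582 and unadjusted p under 0.05 in 8 of 8 fits. Of the 10 other settings, DESeq2 alone passed the threshold, and log2 fold changes were 0.91 to 1.01. Traf1 also varied more between repeats than most genes of like abundance: its coefficient of variation was 34.4% in HET and 28.7% in WT, against 3.56% and 4.64% from counting, and its estimated biological variation stood at the 96.7th percentile of genes within 0.5 log2 CPM. Summed T cell markers were 592, 856, 677 and 511 CPM in HET 1 to 4 and 587, 666, 449 and 441 CPM in WT 1 to 4. Cd2, which is not limited to T cells, was the largest term of each sum and had a lower mean in HET (197 CPM) than in WT (217 CPM). The other 13 tested T cell markers were higher in HET, with a median log2 fold change over all 14 of 0.51. The lowest sums in HET (HET 4) and in WT (WT 3 and WT 4) were in the libraries with the lowest Traf1 of their group, while the highest sum was in HET 2 and the most Traf1 in HET 3. The part of T cell or myeloid RNA in the difference was not tested. The gene lies on the minus strand of chromosome 2, 34941750 to 34961772, with no overlapping gene.

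**Figure D2:**
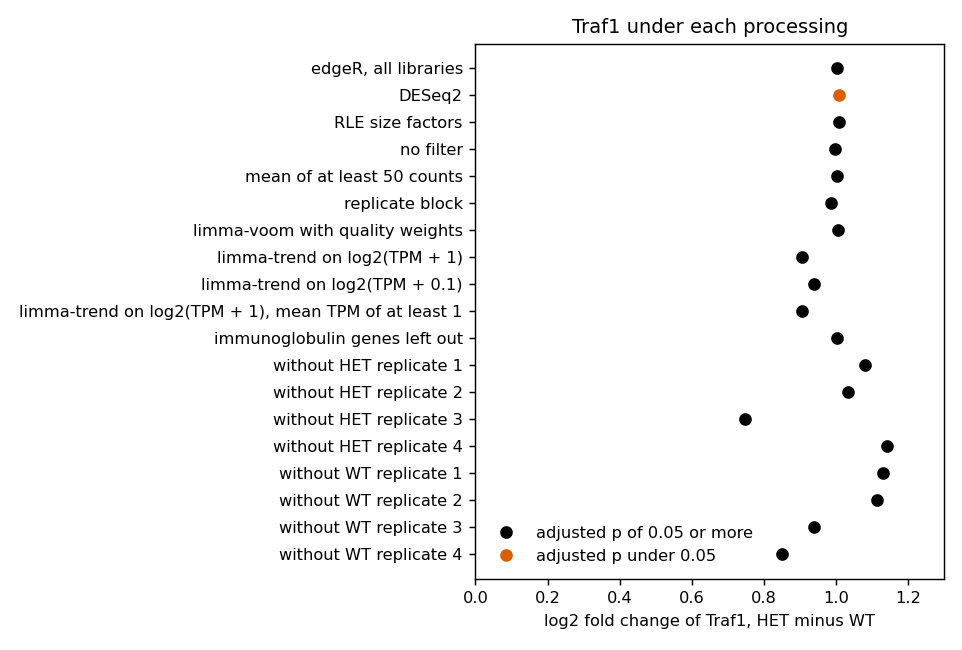
Log2 fold change of Traf1, HET over WT, under each processing and with each library left out, with DESeq2, the setting whose adjusted p was under 0.05, in orange. Values lie between 0.75 and 1.14, and the lowest is the fit without HET 3.

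Traf2 and Traf3, the pair that together with the cIAPs holds NIK in check, gave overlapping groups. Traf2 had 55.2, 61.1, 73.6 and 68.5 CPM in HET 1 to 4 and 54.9, 52.4, 61.6 and 53.4 CPM in WT 1 to 4. HET 1 and HET 2 thus lay inside the WT range, and HET 3 and HET 4 above it. The log2 fold change of Traf2 was 0.22 (95% interval -0.11 to 0.54, edgeR adjusted p 0.810). Traf3 had 36.9, 43.3, 39.6 and 31.5 CPM in HET and 30.4, 26.0, 54.5 and 32.2 CPM in WT. WT 3 was its highest library and WT 2 its lowest, so the WT range enclosed all HET values, and the log2 fold change was 0.08 (95% interval -0.43 to 0.60, edgeR adjusted p 0.969). Both genes have an annotated gene on the opposite strand, and the strand setting of the counting was not given in the sources used here.

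Traf4, a family member better known from epithelial tissues, had 53.4, 42.6, 38.0 and 58.5 CPM in HET and 43.2, 43.2, 37.1 and 39.8 CPM in WT. HET 2 and HET 3 lay inside the WT range and the other HET libraries above it, with a log2 fold change of 0.24 (95% interval -0.16 to 0.64, edgeR adjusted p 0.838). Traf5, a relative of TRAF2 and TRAF3 in sequence, had 89.3, 64.5, 58.7 and 84.8 CPM in HET and 64.0, 84.4, 90.2 and 71.6 CPM in WT. The order of its libraries showed no separation, with a log2 fold change of -0.06 (95% interval -0.43 to 0.31, edgeR adjusted p 0.968), and the sign turned when HET 2, HET 3 or WT 3 was left out. Of the 50-base stretches in Traf5 transcripts, 4.57% also occur in other genes, most of them in Gm26879 on the opposite strand.

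Traf6, whose protein feeds the canonical NF-kB and MAP kinase pathways, pointed the other way from Traf1. HET libraries had 19.9, 26.0, 20.8 and 20.3 CPM, and WT libraries had 32.2, 20.8, 39.9 and 31.8 CPM. The other 3 WT libraries were above all HET libraries, while WT 2 sat among the HET values. The log2 fold change was -0.52 (SE 0.24, 95% interval -1.04 to 0.00), with an unadjusted p of 0.0507 and an adjusted p of 0.696 in edgeR. Without WT 2 the log2 fold change was -0.67 with an unadjusted edgeR p of 0.0123, and without WT 3 it was -0.37 with 0.166. These are low counts, 134 to 339 reads per library. The coefficient of variation was 13.1% in HET and 25.1% in WT, above the 7.69% and 5.97% from counting error alone.

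**Figure D3:**
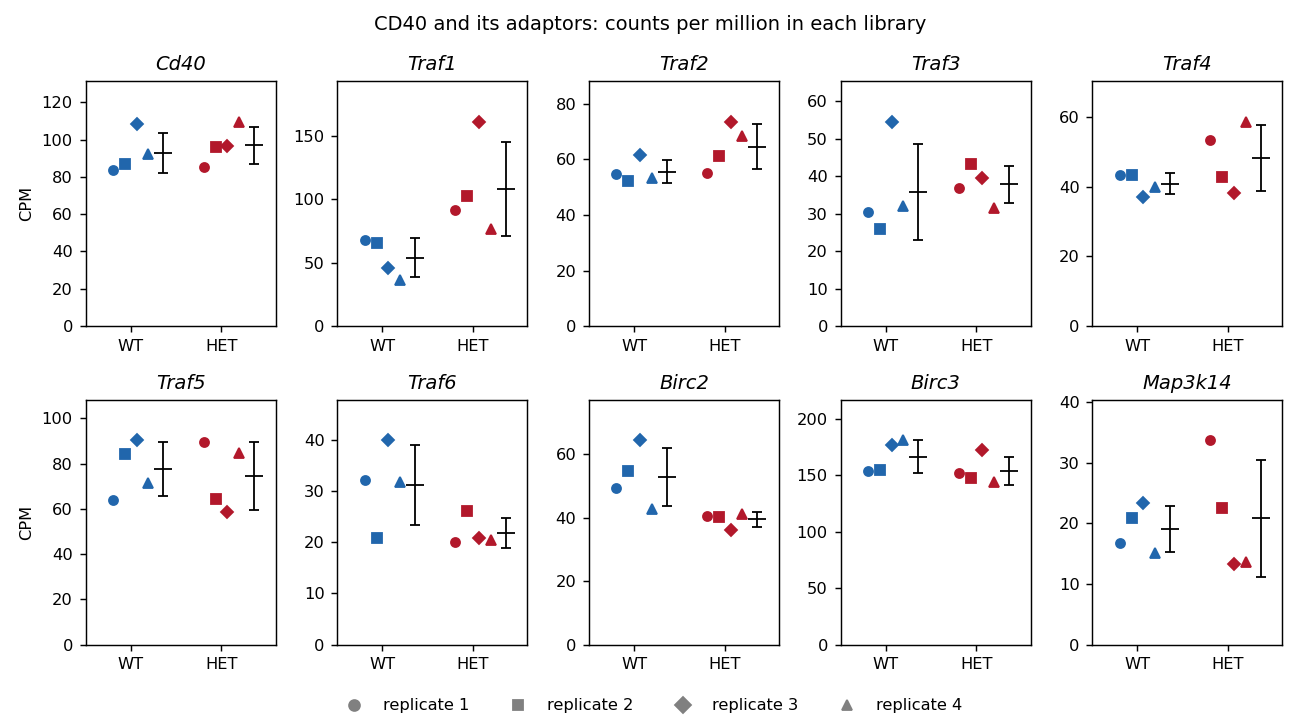
CPM of each of the 10 genes in the 4 WT and 4 HET libraries, with the mean and SD beside each group and a marker shape for each replicate number, each axis starting at 0. Traf1 is higher and Birc2 lower in all 4 HET libraries than in any WT library, and the groups of the other 8 genes overlap.

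Birc2, the gene for cIAP1, had the lower values in HET. Its HET libraries were tight at 40.4, 40.2, 35.96 and 41.2 CPM, and its WT libraries were at 49.4, 54.6, 64.4 and 42.7 CPM. No HET library reached the lowest WT library, WT 4, although the gap between them was small, 41.2 against 42.7 CPM. The log2 fold change was -0.42 (SE 0.18, 95% interval -0.80 to -0.04), with an unadjusted p of 0.0329 and an adjusted p of 0.625 in edgeR, so the gene did not pass. With single libraries left out, log2 fold changes were -0.51 to -0.30, the smallest without WT 3, and the unadjusted p stayed under 0.05 in 3 of 8 fits. The spread of Birc2 in HET, 6.02%, was near the 5.71% that counting error alone gives, while in WT it was 17.3% against 4.53%.

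Birc3, the gene for cIAP2 and a known target of NF-kB, did not separate the groups. It had 152, 148, 172 and 144 CPM in HET and 154, 154, 177 and 181 CPM in WT, with a log2 fold change of -0.11 (95% interval -0.35 to 0.12, edgeR adjusted p 0.876). Only HET 3 was above any WT library. The genes lie side by side on the minus strand of chromosome 9, Birc2 at 7818227 to 7837064 and Birc3 at 7848699 to 7873186. They share 65 stretches of 50 bases, and 7.56% of those in Birc3 occur in other genes, most of them in Gm7019, so reads from these stretches are uncertain.

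Map3k14 had 33.7, 22.5, 13.3 and 13.6 CPM in HET and 16.7, 20.9, 23.4 and 15.1 CPM in WT. HET 1 was the highest library and HET 3 the lowest, so HET values enclosed the WT range. The log2 fold change was 0.14 (95% interval -0.56 to 0.83, edgeR adjusted p 0.958), and it turned to -0.20 without HET 1. That library also stood apart in markers of antibody-secreting cells, which summed to 2117 CPM there and to 296 to 560 CPM in the other HET libraries, and their part in the Map3k14 value was not tested. Map3k14 had the widest repeats of the 10 genes in HET, with a coefficient of variation of 46.1% against 8.73% from counting. It overlaps 1700028N14Rik on the same strand, which shares 1.31% of its 50-base stretches.

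By sign, 6 of the 10 genes were higher and 4 lower in HET, where 49.9% and 50.1% of all tested genes were. The median of their log2 fold changes was 0.07, beside -0.0014 over all tested genes. In edgeR, 0 of 10 passed an adjusted p of 0.05, where 0.0235% of all tested genes did. At an unadjusted p under 0.05 there were 2 of 10, Traf1 higher and Birc2 lower, where 7.22% of all tested genes were called, 3.34% higher and 3.88% lower. The same 2 genes had groups that did not overlap, beside 4.61% of all tested genes, 1.99% with HET above and 2.62% with HET below. DESeq2 called 1 of 10, Traf1, beside 0.687% of the genes it tested. Summed over the 10 genes, HET libraries held 646 to 710 CPM and WT libraries 596 to 702 CPM, which overlap.

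**Figure D4:**
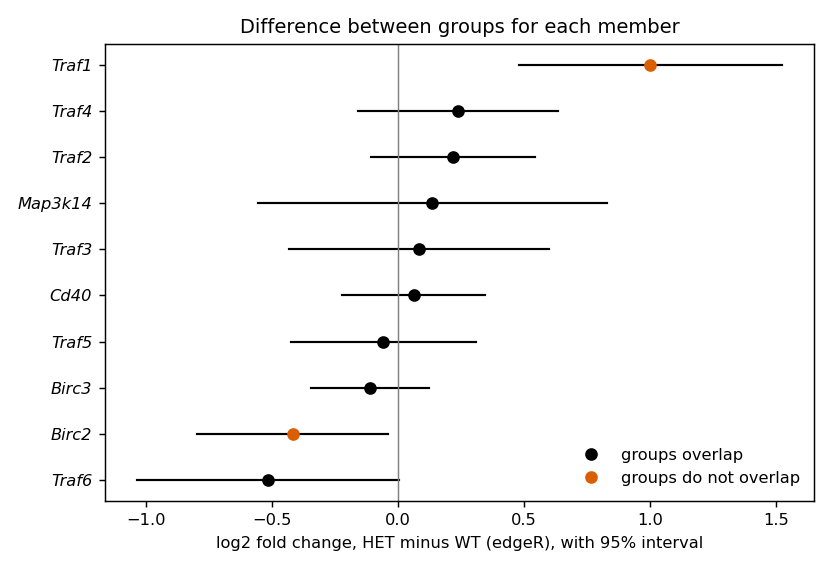
Log2 fold change, HET over WT, of each of the 10 genes from edgeR with its 95% interval, with genes whose groups did not overlap in orange. The intervals of Traf1 (0.48 to 1.52) and Birc2 (-0.80 to -0.04) leave out 0, before any adjustment for the number of genes tested.

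Within a library, the makeup of the TRAF pool can be compared without any scaling between libraries. The shares and sums still depend on the length chosen for each gene, here that of the longest protein-coding transcript. In deposited TPM, the means of Traf1 (26.8) and Traf4 (22.3) were above that of Traf5 (10.6). Traf1 made up 25.5% ± 8.09 (SD, n = 4) of the summed TPM of the 6 TRAF genes in HET and 15.1% ± 4.18 in WT. By library it took 21.4, 26.2, 36.5 and 17.9% in HET and 19.6, 17.8, 11.9 and 11.2% in WT, so that HET 4 fell inside the WT range. Traf5 was the largest share in 7 of 8 libraries, 30.9% ± 6.03 in HET and 38.2% ± 3.99 in WT, and HET 3, where Traf1 led, was the exception. Traf2 took 17.3% ± 1.89 and 17.7% ± 1.17, Traf4 18.9% ± 3.65 and 19.2% ± 2.16, and Traf3 4.396% ± 0.745 and 4.88% ± 1.49, in HET and WT in turn. Traf6 took 2.90% ± 0.544 in HET and 4.92% ± 1.203 in WT. The 6 genes summed to 187 ± 9.63 TPM in HET and 161 ± 15.9 TPM in WT, and without Traf1 to 139 ± 14.3 and 137 ± 16.2 TPM.

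Each of 4 ratios between partners was tested by exact permutation of the 8 libraries (70 arrangements, two-sided), with p adjusted over the 4. The ratios were chosen with earlier results of these data known, and the adjustment does not cover that choice. The smallest p this design allows is 0.0286. The ratio of Traf1 to Traf2 was 1.46, 1.48, 1.94 and 0.986 in HET and 1.09, 1.11, 0.655 and 0.597 in WT. HET 4 was below WT 1 and WT 2 in that ratio, and the 1.72-fold difference had an exact p of 0.0857, adjusted 0.343. Birc3 to Birc2 was 3.99 to 5.48 in HET and 3.14 to 4.85 in WT, 1.23-fold higher (exact p 0.171, adjusted 0.343). Traf3 to Traf2 was 0.198 to 0.305 in HET and 0.214 to 0.382 in WT (exact p 0.771, adjusted 0.800). Map3k14 to Traf3 was 0.560 to 1.52 in HET and 0.712 to 1.34 in WT (exact p 0.800, adjusted 0.800). In all 4 ratios the groups overlapped.

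Around these 10 genes, 64 others were listed, here called pathway genes, and 58 were tested. The lists also hold relatives outside CD40 signalling, such as Fas among the TNF receptors and Birc5 among the regulators and partners. In edgeR 0 passed the adjusted threshold, and DESeq2 called 0. At an unadjusted edgeR p under 0.05 there were 3 higher (Fas, Birc5 and Tank) and 1 lower (Rel) in HET, where 3.34% and 3.88% of all tested genes were. By sign 21 were higher and 37 lower, beside 49.9% and 50.1% of all tested genes, and the median of the log2 fold changes was -0.12. Of 22 kinases and ubiquitin enzymes 9 were higher and 13 lower, of 16 regulators and partners 4 and 12, of 11 NF-kB subunits and inhibitors 4 and 7, and of 9 TNF receptors 4 and 5. None of the 4 lists had more than 2 members at an unadjusted p under 0.05 in either direction, beside 7.22% of all tested genes.

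Fas, the death receptor that rises on GC B cells, had the lowest p of the 58. It had 10.1, 15.7, 14.4 and 17.1 CPM in HET and 7.51, 6.20, 6.18 and 7.20 CPM in WT, and was the single one of 58 pathway genes whose groups did not overlap, beside 4.61% of all tested genes (1.99% with HET above). Its log2 fold change was 1.08 (SE 0.32), with an unadjusted p of 0.00486 and an adjusted p of 0.484 in edgeR. Birc5, which encodes the mitotic protein survivin, had 62.7 ± 11.1 CPM in HET and 37.5 ± 16.4 CPM in WT, a log2 difference of 0.74 (edgeR adjusted p 0.581). Tank, a TRAF-binding adaptor, had 75.4 ± 12.4 and 58.4 ± 7.52 CPM (0.37, edgeR adjusted p 0.642). Rela, a canonical NF-kB subunit, had 143 ± 20.2 and 121 ± 14.9 CPM, and Tab1, a partner of the kinase TAK1, had 18.5 ± 3.72 and 12.1 ± 6.02 CPM. Neither passed the unadjusted threshold.

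On the lower side, Rel, the c-Rel subunit that B cells need to divide, had 146 ± 19.3 CPM in HET against 178 ± 22.7 CPM in WT (log2 difference -0.29, adjusted p from edgeR 0.647). Tnfaip3, which encodes the deubiquitinase A20, a brake on NF-kB, had 35.8 ± 5.16 and 48.4 ± 11.6 CPM (-0.43, edgeR adjusted p 0.706). Xiap, a further relative of the cIAPs, had 45.9 ± 5.21 and 60.2 ± 13.1 CPM, and Birc6 had 120.3 ± 21.9 and 145 ± 11.1 CPM. Ikbkg, which encodes NEMO, had 28.2 ± 4.82 and 39.8 ± 18.8 CPM, its WT values running from 26.6 to 67.6 CPM. In each of these 5 genes the groups overlapped.

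**Figure D5:**
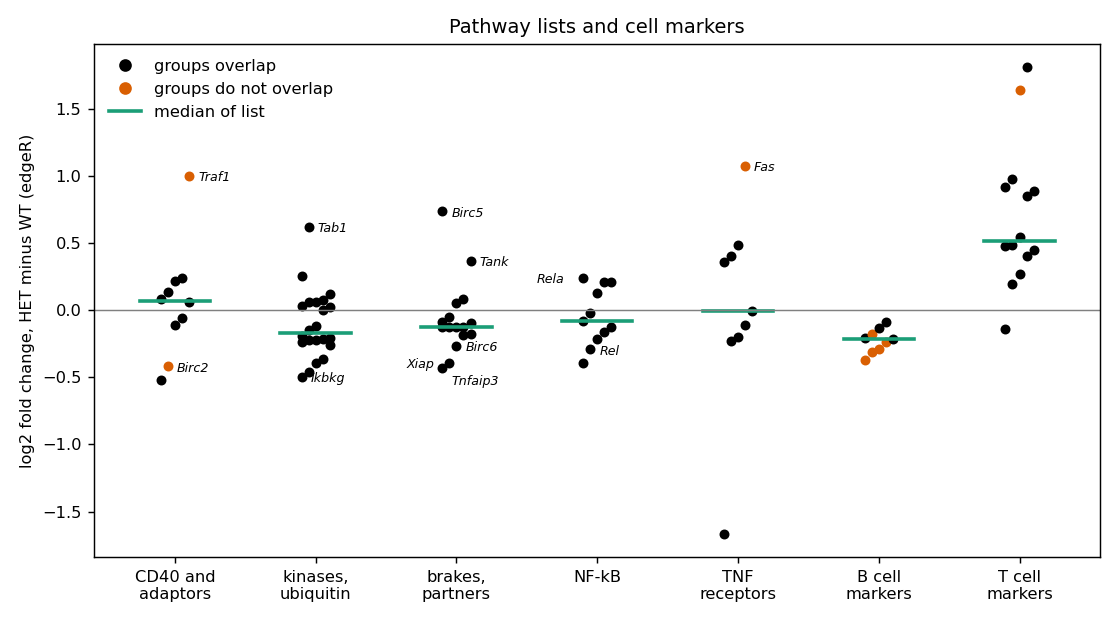
Log2 fold change, HET over WT, of every tested gene in the CD40 group, the 4 pathway lists and the B and T cell markers, with the median of each list as a green bar and genes whose groups did not overlap in orange. Traf1 and Fas stand above the rest of the pathway at 1.001 and 1.08, and all 9 B cell markers lie below 0.

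Genes whose log2 CPM followed Cd40 and Traf1 most closely over the 8 libraries were looked for among 7102 genes of sufficient level. For Cd40 these were Pan2 (Pearson r 0.984), Fam111a (0.911) and Smarce1 (0.909). For Traf1 they were Psmb9 (Pearson r 0.966) and Psma5 (0.955), both proteasome subunits, and Atp5j (0.959), a subunit of ATP synthase. All points share the 8 libraries, and these values are descriptions with no test. As the highest of 7102 values, each over 8 libraries, they are large by selection alone and do not show shared regulation.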

How the data were processed

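RNA of 8 libraries was prepared by the authors with SMART-Seq2 adapted to about 200 cells, aligned to mm10 with HISAT2 2.2.1 and counted per gene with HTSeq. The release of the annotation, the strand setting and how multiply aligned reads were treated were not given in the sources used here. The values in the deposited table of counts are whole reads per gene for 24259 symbols. The deposited TPM table holds 24232 symbols and is the same counts divided by 1 length per gene and rescaled, and that length includes introns.

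Counts were tested in R 4.3.3 with edgeR 4.0.16 (filterByExpr, which kept 12744 genes with 99.7% of counts, TMM, robust quasi-likelihood F-test, group as the only factor, Benjamini-Hochberg adjustment over all tested genes, threshold 0.05). The scripts were tested on simulated data. CPM values are after TMM scaling. The standard error is the fold change over the square root of F. The study used DESeq2, which was an alternative here (1.42.0), with limma 3.58.1, other scalings and filters, a replicate block, and each library left out in turn. Levels and ratios had been planned on deposited TPM. After the data were seen they were computed per length of the longest protein-coding GENCODE M21 transcript instead, which leaves the ratio tests as they were. GENCODE held 23555 of the symbols. SMART-Seq2 has no molecular identifiers, so counting error and floors (3 counts) cover counting alone.

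The 10 genes, the 4 ratios and all lists were chosen with earlier results of these data known. All 10 are described. Of the 4 pathway lists together, the 5 genes with the lowest p in each direction are named, and for Cd40 and Traf1 the 3 best correlated genes whose mean log2 CPM was 4 or more. A further B cell marker of the planned list is not reported here. Cell markers other than these are named where a value touches a result, after their values were seen. Promoter windows are from RefSeq (GRCm38.p6), and Cd40 had no entry.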

Additional observations from a re-analysis of the deposited data

Results flagged for a closer look

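Among 36 groups of 4 values examined, a library stood apart from the other 3 in 2, where chance gives about 1.8. Traf6 in HET 2 was 26.04 CPM, and the other HET libraries lay between 19.94 and 20.82 CPM. Without HET 2, the log2 fold change of Traf6 was -0.61 with an unadjusted edgeR p of 0.0401 and an adjusted p of 0.781. The summed markers of antibody-secreting cells were 2117 CPM in HET 1, and in the other HET libraries 296 to 560 CPM. Jchain, the joining chain of secreted IgM and IgA, made up 1576 CPM of that sum.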

How the results depend on the processing

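Over all genes edgeR called 3, and 0 at the replicate block, 0 with limma-trend on log2(TPM + 1), also with a mean TPM of at least 1, 1 with a pseudocount of 0.1, 6 with limma-voom, 7 with a mean of at least 50 counts, 38 with no filter and 95 with DESeq2. With single libraries left out it called 1 (without any HET library or WT 3) to 6 (without WT 1). Of the 10 CD40 genes, DESeq2 called 1 and every other setting 0. No pathway gene was called under any setting.

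Signs turned for differences near 0: Map3k14 to -0.0081 with a pseudocount of 0.1 and -0.20 without HET 1, Traf5 to 0.0071 without HET 2, 0.040 without HET 3 and 0.028 without WT 3, and Traf3 to -0.044 without WT 2. With single libraries left out, Map3k14 ran from -0.20 to 0.30, Traf5 from -0.16 to 0.040 and Traf3 from -0.044 to 0.36. The log2 ratio of Traf3 to Traf2 turned to 0.055 with group medians and ran from -0.187 to 0.0919 with single libraries left out, that of Map3k14 to Traf3 from -0.368 to 0.111. The cause was not tested. With 3 against 4 libraries the smallest exact p is 0.0571, so those ratio tests cannot pass. The replicate numbers do not pair the libraries, since same-number correlations were -0.05 to 0.01 and in 1 of 4 cases the best match, and the replicate block left Traf1 at 0.99 with an edgeR adjusted p of 0.396. About 200 cells per library limit all values.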
